A study of Mus musculus with 6 samples.

Results

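The 10 genes described here are the muscle atrophy ubiquitin ligases Fbxo32, Trim63 and Fbxo30, the FoxO transcription factors Foxo1, Foxo3 and Foxo4, and Klf15, Fkbp5, Tsc22d3 and Zbtb16, which glucocorticoids induce. They were taken by symbol from the 57010 genes of the deposited count matrix, all 10 were found, and all 10 were among the 15589 genes that passed the filter on low counts. RNA was sequenced from gastrocnemius muscle of 6 mice aged 3 months, each an independent replicate. The mutants were 3 untreated mice of strain B6.A-Dysfprmd/GeneJ (BLAJ), homozygous for the Dysfprmd allele in every cell of the body, of which replicates 1 and 2 were female and replicate 3 male. The controls were 3 untreated males labelled C57BL/6 and wild type. Levels are given as CPM, read-pair counts scaled to a common library size after TMM, which corrects that size for composition.

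Muscle fibres lose protein when the FoxO factors enter the nucleus. Insulin and IGF1 signalling through Akt keeps them phosphorylated and in the cytoplasm, and when that signal falls they induce Fbxo32 (atrogin-1) and Trim63 (MuRF1), ligases that mark muscle proteins for the proteasome. Glucocorticoids act through the receptor Nr3c1, which induces Fkbp5, Tsc22d3, Zbtb16 and Klf15 and, together with FoxO factors, Trim63. Dysferlin, the protein that the mutants lack, reseals the damaged sarcolemma.

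Dysf, the mutated gene, had 15.8, 14.7 and 20.3 CPM in mutants and 72.3, 99.8 and 145 CPM in controls, a difference of -2.64 on the log2 scale (SE 0.28, adjusted p = 0.0249 in edgeR). Summed fibre markers (10 genes, among them Ckm and Acta1) took 157309 to 193912 CPM in mutants and 147467 to 200404 CPM in controls, and 0 of them differed at an unadjusted p below 0.05 in edgeR or were called by DESeq2. The sums hide differences between single libraries. Myh1, Myh2 and Myh7 were lowest in control replicate 3, at 1010, 824 and 79.1 CPM, against up to 6039, 3755 and 829 CPM in other libraries. Myh4 was highest there, at 75458 CPM. The sex-linked genes Xist and Ddx3y followed the labelled sex in all 6 libraries. Ifi202b and H2-Ea-ps, which C57BL/6 mice do not express, had 0 and 1 counts over the mutants, against 1.02 to 7.69 and 2.37 to 3.44 CPM in controls, so the controls go against their strain label. Strain and loss of dysferlin cannot be told apart in the differences below, and 1 male mutant alone separates sex from group. Control replicate 2 stood apart in markers of denervated and regenerating fibres, whose 12 genes summed to 1187 CPM there, against 89.3 to 119 CPM in mutants and 75.2 and 105 CPM in the other controls. Multimapping read pairs were most frequent in control replicate 1 (9.78%), which also stood apart in Hsp90aa1, the stress-inducible cytosolic Hsp90, with 239 CPM against 49.6 to 65.6 CPM in mutants and 54.4 and 59.3 CPM in the other controls.

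Fkbp5, Klf15 and Foxo3 were the members whose groups did not overlap. Fkbp5 was lower and Klf15 and Foxo3 were higher in every mutant than in every control. Across all genes tested, the groups did not overlap in 12.1%, with the mutants all higher in 5.97% and all lower in 6.09%. No member was called by edgeR at an adjusted p below 0.05, where 0.199% of all genes were (0.0128% higher, 0.186% lower), and 3 of 10 members had an unadjusted p below 0.05 (2 higher, 1 lower), where 6.94% of all genes did (3.25% higher, 3.69% lower). DESeq2 called 1 member, Fkbp5, where it called 1.18% of all genes (0.824% lower). The median log2 fold change of the members was -0.24, with 3 of 10 above 0, against a median of -0.0015 and 49.8% above 0 over all genes tested.

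**Figure D1:**
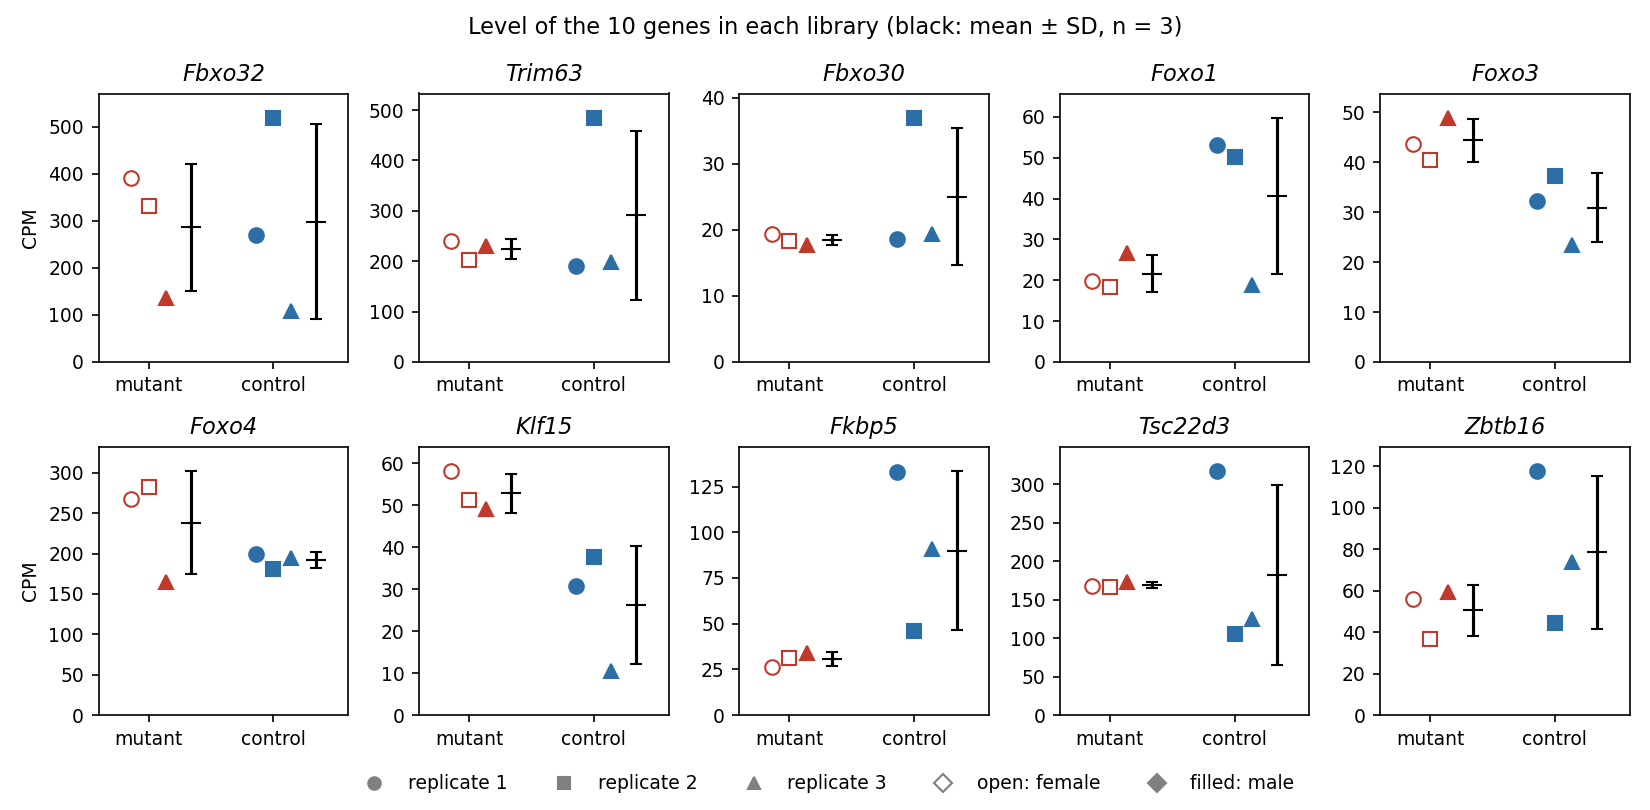
CPM of each of the 10 genes in each library, mutants left and controls right, with symbols for the replicate number, open symbols for females, filled symbols for males, and the mean ± SD (n = 3) in black. Fkbp5 lies lower, and Klf15 and Foxo3 lie higher, in all 3 mutants than in any control. Control replicate 2 is the highest in Fbxo32, Trim63 and Fbxo30, and control replicate 1 in Fkbp5, Tsc22d3 and Zbtb16.

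Of the ligases, Fbxo32 and Trim63 did not separate the groups, and the widest spread lay among the controls. Fbxo32 (ENSMUSG00000022358), the substrate receptor of an SCF ligase, had 391, 330.5 and 135 CPM in mutants and 269, 519 and 107 CPM in controls. Both groups covered much the same range, and the male mutant lay well below both females. Fbxo32 had a log2 fold change of -0.06 (SE 0.61, adjusted p = 0.994 in edgeR). Its value was 0.60 when control replicate 2 was left out, 0.27 when mutant replicate 3 was, and -1.14 once sex was a covariate (adjusted p = 0.875, 0.947 and 0.899 in edgeR). In the fit with sex, the mutant term rests on the single male mutant. Trim63 (ENSMUSG00000028834), a RING-finger ligase of the sarcomere that targets thick-filament proteins, had 241, 202 and 231 CPM in mutants and 191, 485 and 198 CPM in controls. Control replicate 2 was the sole library above 241 CPM, and the mutants lay slightly above the other controls. The log2 fold change of Trim63 was -0.37 (SE 0.37, adjusted p = 0.901 in edgeR), and 0.21 without control replicate 2 (adjusted p = 0.804 in edgeR).

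Fbxo30 (ENSMUSG00000047648), the F-box protein known in mouse muscle as MUSA1, which bone morphogenetic protein signalling represses, had 19.3, 18.4 and 17.7 CPM in mutants and 18.7, 37.0 and 19.3 CPM in controls. All libraries but control replicate 2 lay within 2 CPM of each other. Fbxo30 had a log2 fold change of -0.44 (SE 0.27, adjusted p = 0.824 in edgeR), and -0.04 without control replicate 2. All 3 ligases thus had their highest value in control replicate 2, the library high in denervation markers. In that library the fetal acetylcholine receptor subunit gene Chrng stood at 20.1 CPM, against 0.248 to 0.687 CPM in mutants and 0.0509 and 0.749 CPM in the other controls. The myogenic factor gene Myog stood at 53.4 CPM there, against 8.32 to 10.2 CPM in mutants and 7.64 and 14.0 CPM in the other controls. Cdkn1a, a cell cycle inhibitor gene that FoxO factors and p53 induce, stood at 326 CPM there, against 14.3 to 17.6 CPM in mutants and 16.8 and 21.2 CPM in the other controls. Gadd45a, a stress gene induced in denervated muscle, stood at 173 CPM there, against 23.0 to 34.0 CPM in mutants and 9.76 and 19.2 CPM in the other controls. FoxO targets as a set did not stand apart there. The 30 listed, which include Cdkn1a and Gadd45a, summed to 4279 CPM, against 4243 to 4875 CPM in mutants and 4587 and 4056 CPM in the other controls. Some of them, Pdk4 and Txnip among others, were lowest in control replicate 2. Of the 12 denervation and regeneration markers, 11 were tested and 10 had a log2 fold change below 0 (median -1.41), with control replicate 2 included. Of those tested, 0 were called by edgeR or DESeq2 and 1 was lower at an unadjusted p below 0.05 in edgeR. Their sums in mutants (89.3 to 119 CPM) overlapped those of the other controls (75.2 and 105 CPM). The part of these markers in the ligase values was not tested.

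**Figure D2:**
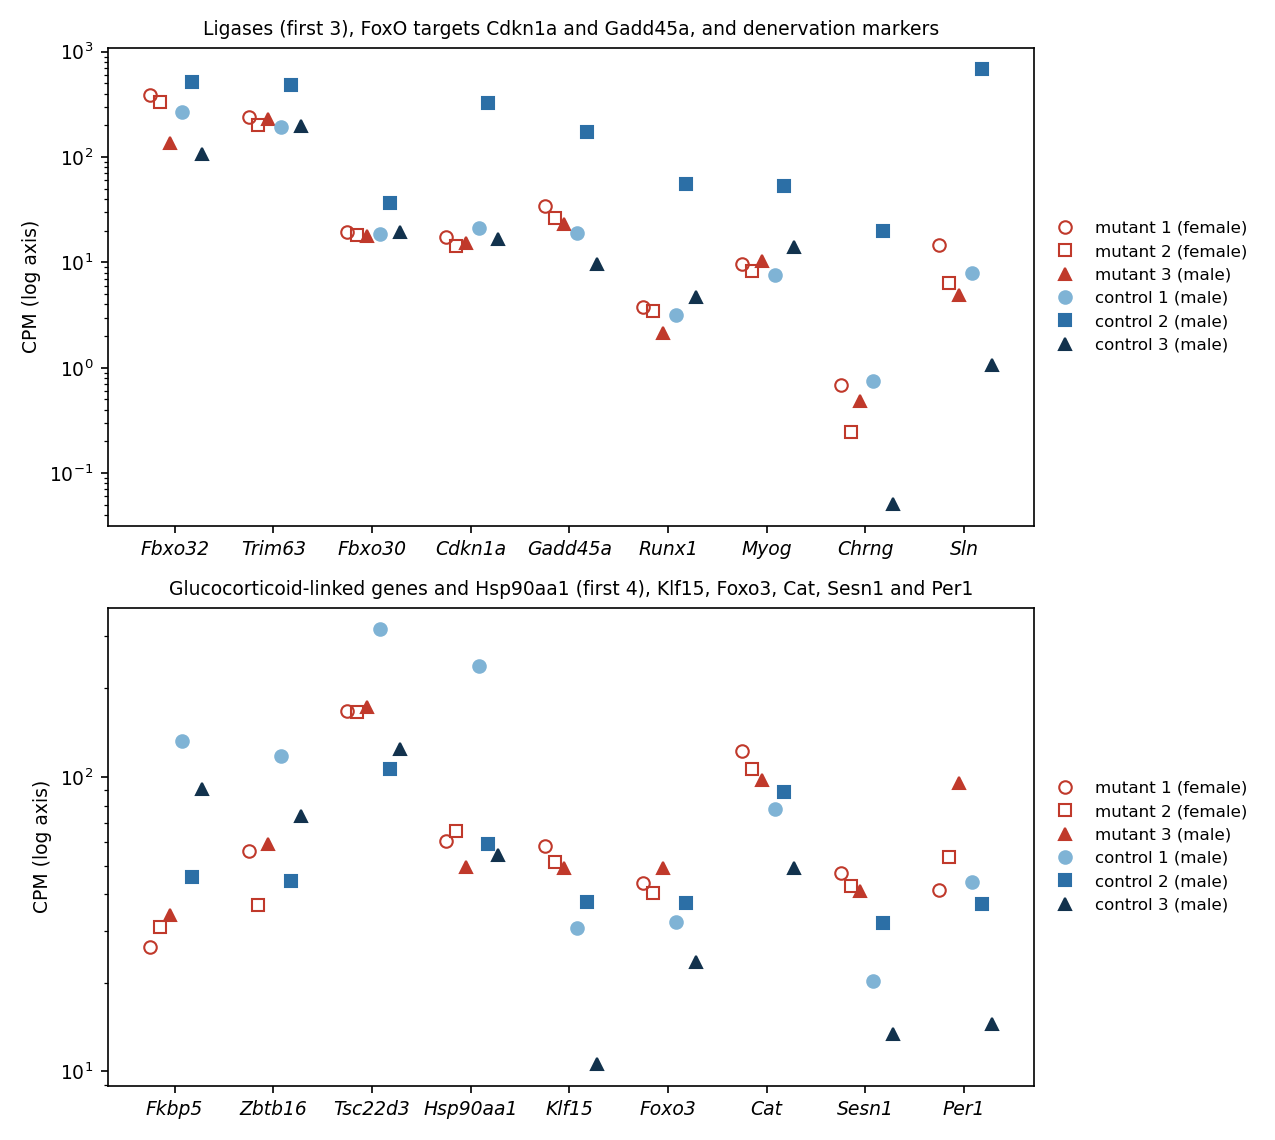
CPM on a log axis of members and of genes of the other lists in each library, mutants left of controls for each gene. In the top panel control replicate 2 lies above the other libraries in every gene shown, and most in Sln, Cdkn1a and Chrng. In the bottom panel control replicate 1 is highest in Fkbp5, Zbtb16, Tsc22d3 and Hsp90aa1, and control replicate 3 is lowest in Klf15, Foxo3, Cat, Sesn1 and Per1.

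Trim63 is the member with recognition sequences for both pathways beside each other in its proximal promoter, and its upstream sequence is shown for that reason, with those of Klf15 and Fkbp5, members whose groups did not overlap. Each is the 250 bases before the RefSeq transcription start in GRCm38.p6, written 5′ to 3′ on the strand of the gene. Capitals mark matches on either strand to GTAAACA (FoxO factors), AGAACA (1 arm of the glucocorticoid receptor palindrome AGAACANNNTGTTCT) or CACGTG (the E-box of the clock factors).
Trim63, chr4:134314870-134315119, plus strand: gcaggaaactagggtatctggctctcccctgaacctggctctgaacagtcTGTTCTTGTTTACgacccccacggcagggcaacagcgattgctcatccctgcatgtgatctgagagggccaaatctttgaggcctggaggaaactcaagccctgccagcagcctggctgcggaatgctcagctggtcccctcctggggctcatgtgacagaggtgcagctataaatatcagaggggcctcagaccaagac
Klf15, chr6:90462326-90462575, plus strand: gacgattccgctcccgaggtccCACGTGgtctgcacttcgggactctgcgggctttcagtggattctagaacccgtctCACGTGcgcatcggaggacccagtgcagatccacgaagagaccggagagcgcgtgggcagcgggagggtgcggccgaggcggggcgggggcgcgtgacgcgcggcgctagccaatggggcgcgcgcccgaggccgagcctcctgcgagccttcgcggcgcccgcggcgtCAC
Fkbp5, chr17:28486150-28486399, minus strand: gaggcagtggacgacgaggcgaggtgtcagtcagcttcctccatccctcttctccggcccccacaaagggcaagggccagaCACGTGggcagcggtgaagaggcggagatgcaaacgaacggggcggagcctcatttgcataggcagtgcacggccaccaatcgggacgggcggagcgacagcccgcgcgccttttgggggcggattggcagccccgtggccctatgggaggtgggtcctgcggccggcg
Positions count back from the start site, the last upstream base being -1 and the first transcribed base 1, and matches were searched over the 300 bases that end 50 bases past the start. In Trim63, TGTTCT at -200 to -195 is followed without a gap by TGTTTAC at -194 to -188. These are AGAACA and GTAAACA read on the opposite strand. The looser receptor spacing ACANNNTGT matched ACAGTCTGT at -206 to -198, overlapping the TGTTCT. Klf15 had CACGTG at -228 to -223, at -172 to -167 and at -3 to 3, the last of them cut off in the printed stretch after CAC. Fkbp5 had it at -169 to -164. The upstream sequence of Foxo3, whose groups did not overlap either, is not printed, and its window held no match to any sequence searched. Of all 32851 RefSeq windows of 300 bases, 3.65% held GTAAACA, 19% AGAACA, 6.85% ACANNNTGT, 7.15% CACGTG and 0.00913% the full palindrome. Among the 9 windows of the 7 members that RefSeq's promoter table holds, 1 held GTAAACA, 2 AGAACA (Trim63 and 1 of the 3 windows of Tsc22d3), 1 ACANNNTGT, 2 CACGTG and 0 the palindrome. Fbxo32, Foxo4 and Zbtb16 had no window there, so their sequences were not searched. A match describes the sequence and says nothing of binding in these muscles.

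With all 6 libraries none of the FoxO genes was called: Foxo3 was higher in every mutant, the Foxo1 mean was lower, and Foxo4 was high in the female mutants. Foxo3 (ENSMUSG00000048756), the FoxO factor best known for driving Fbxo32 and autophagy genes in muscle, had 43.7, 40.5 and 48.9 CPM in mutants and 32.2, 37.2 and 23.4 CPM in controls. Every mutant lay above every control, with 40.5 CPM in the lowest mutant and 37.2 CPM in the highest control. For Foxo3 the log2 fold change was 0.52 (SE 0.19, unadjusted p = 0.0261, adjusted p = 0.655 in edgeR). Across the 24 other settings tried, the log2 fold change of Foxo3 ran from 0.34 to 0.67. Foxo1 (ENSMUSG00000044167), a FoxO factor that fasting and glucocorticoids induce in muscle, had 19.8, 18.4 and 26.7 CPM in mutants and 53.1, 50.2 and 18.7 CPM in controls. Control replicates 1 and 2 lay above all mutants and control replicate 3 among them. The log2 fold change of Foxo1 was -0.91 (SE 0.39, unadjusted p = 0.0523, adjusted p = 0.726 in edgeR). Without control replicate 3 it was -1.26, and the adjusted p was 0.15 in edgeR and 5.07e-05 in DESeq2, with 2 controls left. Without control replicate 1 it was -0.68 (adjusted p = 0.686 in edgeR).

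Foxo4 (ENSMUSG00000042903), the X-linked FoxO factor, had 268, 282 and 165 CPM in mutants and 199.96, 181 and 195 CPM in controls. Both female mutants lay above all 4 males, and the male mutant lay lowest of the 6. For Foxo4 the log2 fold change was 0.31 (SE 0.21, adjusted p = 0.838 in edgeR). It was -0.22 with sex as a covariate and -0.22 in males only (adjusted p = 0.909 and 0.998 in edgeR), where 1 mutant remained. Without that male mutant it was 0.52, and the adjusted p was 0.489 in edgeR and 0.0271 in DESeq2, which called it. Of the strand-assigned read pairs, 11.2% of those of Foxo1 and 6.75% of those of Fbxo32 were left uncounted in the deposited matrix, which ignored strand. With strand-matched counts the log2 fold changes were -0.93 for Foxo1 and -0.06 for Fbxo32. The opposite strand held at most 0.776% of the read pairs of any member in any library, against 6.60% to 7.20% over all genes.

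Fkbp5 was the member with the widest separation, and it was lower in mutants. Fkbp5 (ENSMUSG00000024222) encodes FKBP51, a co-chaperone of Hsp90 that lowers the hormone affinity of the glucocorticoid receptor and is itself among the genes most readily induced by it. It had 26.5, 31.0 and 34.1 CPM in mutants and 133, 45.8 and 90.9 CPM in controls. All mutants lay below all controls, and the controls differed 2.90-fold among themselves. The mean was 30.5 ± 3.80 CPM in mutants and 89.9 ± 43.5 CPM in controls (SD, n = 3 each), a fold change of 0.34. On the log2 scale the change was -1.56 (SE 0.36, unadjusted p = 0.00366), with an adjusted p of 0.404 in edgeR and 0.00304 in DESeq2. The authors' deposited DESeq2 table gave -1.56 with an adjusted p of 0.00298. Of the 20547 genes it lists, 205 were past an adjusted p of 0.05 (55 higher, 150 lower), and Fkbp5 was the sole member among them. The direction held in all 24 other settings, with log2 fold changes of -1.88 to -1.16.

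Whether Fkbp5 was called differed between edgeR and DESeq2 and with single libraries. Without control replicate 2 edgeR called it too (log2 -1.87, adjusted p = 0.0255). In DESeq2 the adjusted p was 0.13 without mutant replicate 1 and 0.0573 without mutant replicate 2, and 0.0148, 0.0215, 9.49e-12 and 0.0364 without mutant replicate 3 and control replicates 1, 2 and 3. With sex as a covariate it was -1.40 in edgeR (adjusted p = 0.874) and -1.42 in DESeq2 (adjusted p = 0.412). The male mutant, at 34.1 CPM, lay closer to the female mutants than to the lowest male control, at 45.8 CPM.

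Tsc22d3 and Zbtb16, which the same hormone induces, did not separate the groups. Tsc22d3 (ENSMUSG00000031431), the X-linked gene of the anti-inflammatory leucine zipper protein GILZ, had 168, 167 and 173 CPM in mutants and 317, 106 and 124 CPM in controls. The mutants lay together, between control replicate 1 and the other controls. Tsc22d3 had a log2 fold change of -0.11 (SE 0.40, adjusted p = 0.979 in edgeR). Without control replicate 1 it was 0.55, with an adjusted p of 0.351 in edgeR and 0.028 in DESeq2. Its direction thus turned with 1 library. With all 6 libraries it also turned in other settings, to 0.069 and 0.080. Zbtb16 (ENSMUSG00000066687), a zinc-finger repressor also known as PLZF, had 56.2, 36.6 and 59.3 CPM in mutants and 118, 44.2 and 73.6 CPM in controls. Mutant replicate 2 and control replicate 2 were the lowest libraries of their groups. Zbtb16 had a log2 fold change of -0.63 (SE 0.36, adjusted p = 0.812 in edgeR), and -0.22 without control replicate 1. Both genes are also expressed in lymphocytes. The 10 T and NK cell markers summed to 1.96 to 2.75 CPM in mutants and 2.12 to 2.695 CPM in controls, and none was at 0 in all libraries. Of the 3 tested, 2 had a log2 fold change above 0 and 1 below, with a median of 0.86. Among them 1 was higher in mutants at an unadjusted p below 0.05 in edgeR, without overlap, and 0 were called by edgeR or DESeq2. In bulk muscle, fewer cells of a type and less RNA per cell cannot be told apart.

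Klf15 was higher in every mutant. Klf15 (ENSMUSG00000030087), a Krüppel-like factor that the glucocorticoid receptor and the clock control in muscle and that induces branched-chain amino acid breakdown, had 58.1, 51.3 and 49.2 CPM in mutants and 30.7, 37.6 and 10.6 CPM in controls. The lowest mutant lay above the highest control, and control replicate 3 lay far below the rest. The mean was 52.9 ± 4.66 CPM in mutants and 26.3 ± 14.0 CPM in controls (SD, n = 3 each). The log2 fold change was 1.01 (SE 0.42, unadjusted p = 0.0492, adjusted p = 0.719 in edgeR; DESeq2 adjusted p = 0.394). It stayed above 0 in all 24 other settings, from 0.62 without control replicate 3 to 1.35 without control replicate 2. Fkbp5 and Klf15, both receptor targets, lay on opposite sides of the controls. With all 6 libraries edgeR called neither, and what set their directions was not tested.

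Klf15 is on chromosome 6, as is Dysf, and 182 RefSeq genes lie between them in the gene order of GRCm38.p6. Of these, 63 were tested, 0 were called by edgeR, 3 (4.76%) had an unadjusted p below 0.05, and DESeq2 called 1. That gene, chosen after its values were seen, was Gkn3, with means of 1.87 CPM in mutants and 0.488 CPM in controls (log2 1.92, SE 0.42, adjusted p = 0.321 in edgeR, DESeq2 adjusted p = 0.00726). The sources used here do not give how far A/J sequence extends from Dysf in this strain.

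**Figure D3:**
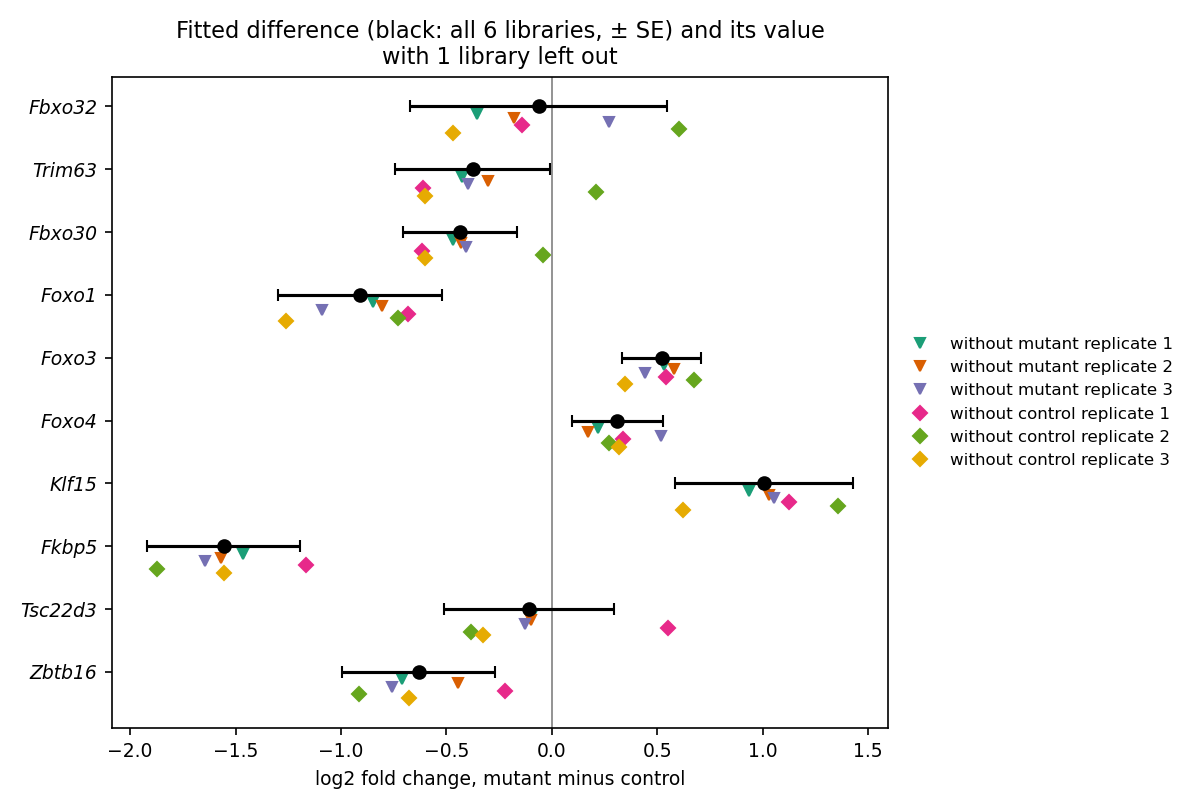
Log2 fold change, mutant minus control, of each member from all 6 libraries (black, ± SE) and from edgeR fits that leave out 1 library. Fkbp5, Foxo1, Fbxo30 and Zbtb16 stay below 0 and Foxo3, Foxo4 and Klf15 above 0 in all of these fits. Fbxo32, Trim63 and Tsc22d3 cross 0, Fbxo32 without control replicate 2 or mutant replicate 3, Trim63 without control replicate 2 and Tsc22d3 without control replicate 1.

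Per length of annotated exon, the members spanned a wide range of levels. Trim63 was the most abundant at 79.0 ± 7.13 CPM per kb in mutants and 102 ± 59.0 in controls (SD, n = 3 each). Foxo4 followed at 68.3 ± 18.3 CPM per kb in mutants and 55.1 ± 2.82 in controls, and was the most abundant FoxO gene. Fbxo32 (41.0 ± 19.2 CPM per kb in mutants and 42.8 ± 29.7 in controls) and Tsc22d3 (39.0 ± 0.816 in mutants and 42.1 ± 26.9 in controls) came next, and their levels overlapped each other in both groups. Klf15 stood at 18.9 ± 1.67 CPM per kb in mutants and 9.43 ± 5.03 in controls. Zbtb16 stood at 9.59 ± 2.33 in mutants and 14.9 ± 6.99 in controls. Trim63 and Foxo4 overlapped in mutants but not in controls, where the lowest Trim63 level was 67.2 and the highest Foxo4 level 57.4 CPM per kb. Foxo4 and Fbxo32 overlapped in both groups. The lowest 4 in mutants were Foxo3 at 5.86 ± 0.56, Fbxo30 at 3.55 ± 0.156, Fkbp5 at 3.23 ± 0.401 and Foxo1 at 2.50 ± 0.513 CPM per kb. In controls these 4 stood at 4.09 ± 0.92, 4.81 ± 2.00, 9.49 ± 4.60 and 4.69 ± 2.20 CPM per kb in the same gene order. By its mean Fkbp5 ranked ninth in mutants and sixth in controls, where the mean of Klf15 (9.43 ± 5.03) was close to it.

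Across the 6 libraries the members formed pairs rather than one block. Foxo3 and Klf15 ran together, with a Pearson r of 0.95 and a Spearman rho of 0.83 of log2 CPM, and an r of 0.95 without control replicate 2. Control replicate 3 was the lowest library in both, at 23.4 and 10.6 CPM. How far their r rests on that library was not tested. Fkbp5 and Zbtb16 had an r of 0.82 (rho 0.71), 0.57 without control replicate 1. Fkbp5 ran against Foxo3 (r = -0.79) and Klf15 (r = -0.73). Trim63 and Fbxo30 had an r of 0.96 but a rho of 0.31, and -0.12 without control replicate 2, so that likeness rests on that library. Fbxo32 and Trim63, often measured as a pair in atrophy, had an r of 0.59 and 0.18 without control replicate 2. All these values include the difference between the groups, and 6 libraries set their precision.

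**Figure D4:**
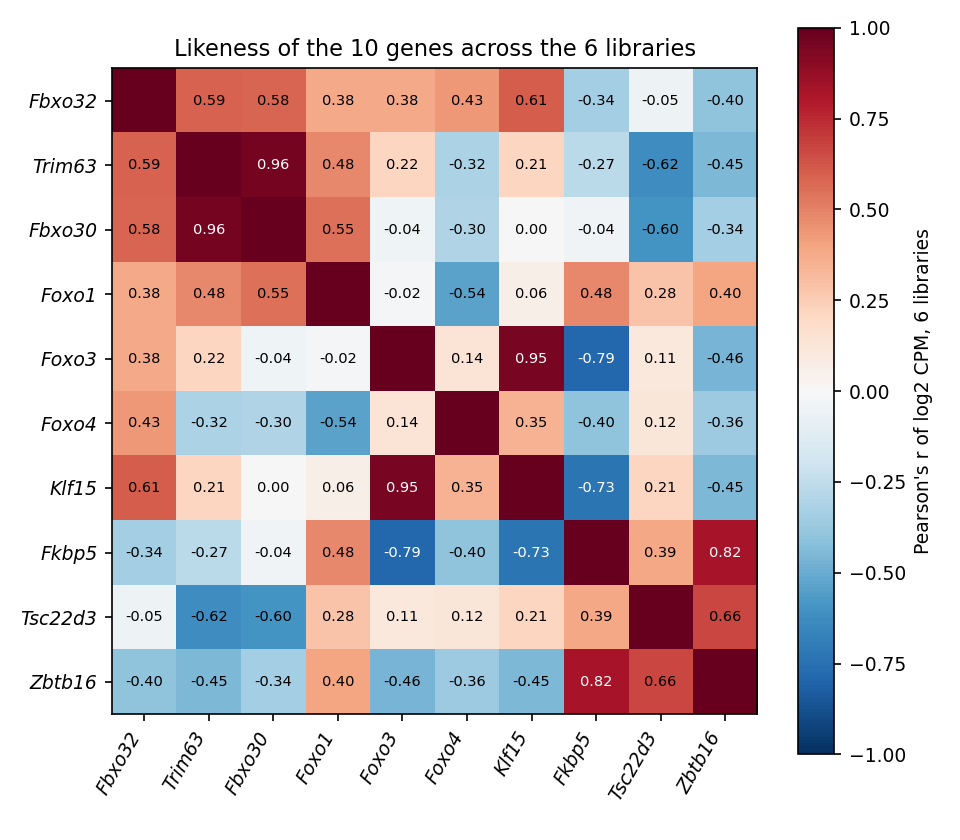
Pearson's r of log2 CPM over the 6 libraries for each pair of members. The highest values are those of Trim63 with Fbxo30 (0.96) and Foxo3 with Klf15 (0.95), and the lowest that of Foxo3 with Fkbp5 (-0.79).

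Among 9154 genes with an established symbol and a mean of at least 5 CPM, the patterns most like those of 5 members were these, each over 6 libraries. Fbxo32 was matched best by Zdhhc1, Abcf1 and Htatip2 (r of 0.97 each). Trim63 was matched by Itm2b at an r of 1.00, and by Copz2 (1.00) and Pld3 (0.99). Control replicate 2 stood apart in these genes as in Trim63, and r without it was not computed. Copz2 had 35.3 CPM there and 17.0 to 20.8 CPM elsewhere, and Pld3 31.7 CPM there and 15.6 to 20.0 CPM elsewhere. Itm2b, a transmembrane protein gene, had 271, 233 and 260 CPM in mutants and 225, 477 and 229 CPM in controls, in the same order of libraries as Trim63. Klf15 was matched by Tbx1, Cat and Nsun3 (0.99, 0.99 and 0.98), of which Cat, the catalase gene, is also in the list of FoxO targets. Fkbp5 was matched by Prkcd, Odc1 and Fam45a (1.00, 0.99 and 0.99). Odc1, which makes putrescine for the polyamines, had 66.1, 79.6 and 83.3 CPM in mutants and 366, 141 and 239 CPM in controls. Zbtb16 was matched by Nck1, Ceacam1 and Washc3 (0.99, 0.99 and 0.98).

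The other genes of these pathways gave no call in edgeR, list by list. Of 30 FoxO targets tested, 0 were called by edgeR or DESeq2, 4 were higher and 1 lower at an unadjusted p below 0.05, and the median log2 fold change was 0.08. Sesn1, a stress-induced inhibitor of mTORC1, averaged 43.5 ± 3.24 CPM in mutants and 21.9 ± 9.37 CPM in controls (SD, n = 3 each; log2 0.99, SE 0.29, adjusted p = 0.557 in edgeR). Cat averaged 109 ± 12.4 CPM in mutants and 71.8 ± 20.4 CPM in controls (log2 0.60, SE 0.23, adjusted p = 0.677 in edgeR). The pluripotency and vascular factor gene Klf4 averaged 25.5 ± 3.48 CPM in mutants and 19.7 ± 0.608 CPM in controls (log2 0.37, SE 0.14, adjusted p = 0.667 in edgeR). All 3 did not overlap between the groups. Of the 30 targets, 4 had all mutants higher and 0 all lower, where 12.1% of all genes tested did not overlap (5.97% all higher). The gene lower at that level was Cdkn1a, whose difference lies in control replicate 2. Of 20 regulators of FoxO, 0 had an unadjusted p below 0.05 in edgeR and 0 were called by DESeq2, and the median was -0.11 with 15 below 0. Mtor averaged 44.9 ± 3.15 CPM in mutants and 58.9 ± 12.4 CPM in controls, and Foxo6, the remaining FoxO gene, 12.1 ± 4.61 CPM in mutants and 6.49 ± 2.84 CPM in controls (unadjusted p = 0.0525 and 0.0533, edgeR).

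Of 23 other muscle ubiquitin ligases tested, 0 were called by edgeR or DESeq2, 2 were higher and 1 lower at an unadjusted p below 0.05, and the median was -0.0063. Fbxl22, an F-box gene of the sarcomere, averaged 11.97 ± 4.99 CPM in mutants and 6.25 ± 1.77 CPM in controls (log2 0.94, SE 0.34, adjusted p = 0.655 in edgeR). Fbxo21, an F-box gene, averaged 18.3 ± 0.821 CPM in mutants and 14.5 ± 1.63 CPM in controls (log2 0.34, SE 0.14, adjusted p = 0.695 in edgeR). The groups of both did not overlap. Of the 23 ligases, 3 had all mutants higher and 0 all lower, where 12.1% of all genes tested did not overlap (5.97% all higher). Asb5, a substrate receptor gene of cullin ligases, averaged 185 ± 23.9 CPM in mutants and 302 ± 106 CPM in controls (log2 -0.71, SE 0.28, adjusted p = 0.681 in edgeR), with 180.5 CPM in control replicate 2. Of 11 SCF core and ubiquitin genes tested, 0 were called by edgeR or DESeq2 and 1 was lower at an unadjusted p below 0.05. That gene, Usp14, a deubiquitinase of the proteasome, averaged 46.7 ± 1.80 CPM in mutants and 57.1 ± 2.09 CPM in controls (log2 -0.29, SE 0.11, adjusted p = 0.677 in edgeR), without overlap. Ubb averaged 394 ± 58.0 CPM in mutants and 352 ± 35.1 CPM in controls, and the conjugating enzyme gene Ube2d1 224 ± 47.6 CPM in mutants and 179 ± 35.9 CPM in controls (unadjusted p = 0.357 and 0.162, edgeR).

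The glucocorticoid receptor gene Nr3c1, named here for its role, averaged 136 ± 16.4 CPM in mutants and 127 ± 7.09 CPM in controls (log2 0.10, SE 0.14, adjusted p = 0.939 in edgeR). Of 11 genes of the receptor and of hormone supply tested, 0 were called by edgeR or DESeq2, 1 was lower at an unadjusted p below 0.05, and the median was -0.15. That gene was Hsd11b1, the enzyme that regenerates active glucocorticoid inside cells. It had 6.82, 4.38 and 6.26 CPM in mutants and 9.41, 8.70 and 9.25 CPM in controls. All mutants lay below all controls (log2 -0.65, SE 0.20, adjusted p = 0.572 in edgeR). Nr3c2, the mineralocorticoid receptor gene, averaged 16.9 ± 3.33 CPM in mutants and 12.2 ± 2.50 CPM in controls (unadjusted p = 0.0623, edgeR). Hsp90aa1 had an unadjusted p of 0.132 in edgeR, its high value being that of control replicate 1, the library that was also highest in Fkbp5, Tsc22d3 and Zbtb16.

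Of 24 other glucocorticoid targets tested, 0 were called by edgeR, 3 were higher and 2 lower at an unadjusted p below 0.05, DESeq2 called 1, and the median was -0.04. The called gene was Dusp1, a phosphatase of MAP kinases that stress also induces. It had 95.1, 81.5 and 101 CPM in mutants and 36.6, 42.8 and 61.8 CPM in controls. Every mutant lay above every control (log2 0.98, SE 0.21), with an adjusted p of 0.321 in edgeR and 0.00906 in DESeq2. Cebpd, a transcription factor gene of the acute phase, averaged 18.8 ± 6.16 CPM in mutants and 8.89 ± 4.20 CPM in controls (log2 1.08, SE 0.37, adjusted p = 0.655 in edgeR), and its groups did not overlap. Dusp1 and Cebpd lay on the side of Klf15, and the 2 genes lower at an unadjusted p below 0.05 on the side of Fkbp5. Of the 24 targets, 12 had a log2 fold change above 0 and 12 below. All mutants were higher in 4 and all lower in 1, where 12.1% of all genes tested did not overlap (5.97% all higher, 6.09% all lower). Of 14 Klf15 targets of amino acid and lipid use, 0 had an unadjusted p below 0.05 in edgeR and 0 were called by DESeq2. Their median was 0.13, with 11 of 14 above 0. Slc25a20, the mitochondrial acylcarnitine carrier gene, averaged 79.3 ± 10.4 CPM in mutants and 63.6 ± 13.4 CPM in controls (unadjusted p = 0.125, edgeR). Mef2a, a muscle transcription factor gene, averaged 145 ± 28.9 CPM in mutants and 179.6 ± 31.1 CPM in controls (log2 -0.31, unadjusted p = 0.165 in edgeR). Acsl1, a fatty acid activating enzyme gene, averaged 332 ± 32.9 CPM in mutants and 293 ± 43.6 CPM in controls (log2 0.18, unadjusted p = 0.306 in edgeR).

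The clock genes are given because Klf15 is a clock-controlled gene and its promoter holds the E-boxes shown above. Of 15 tested, 0 were called by edgeR, and 3 were higher and 3 lower at an unadjusted p below 0.05, where 6.94% of all genes had such a p. DESeq2 called 2 higher and 1 lower, where it called 1.18% of all genes. All mutants were higher in 5 and all lower in 2, where 12.1% of all genes tested did not overlap (5.97% all higher, 6.09% all lower). Dbp, a D-box activator driven directly by the clock, had 62.6, 77.6 and 77.1 CPM in mutants and 42.5, 31.5 and 33.3 CPM in controls, without overlap (log2 1.02, SE 0.16), with an adjusted p of 0.134 in edgeR and 0.000114 in DESeq2. Per3, a period gene, averaged 29.6 ± 3.56 CPM in mutants and 15.3 ± 2.20 CPM in controls (log2 0.95, SE 0.16), with an adjusted p of 0.16 in edgeR and 0.000716 in DESeq2. Arntl (Bmal1), the activator that binds E-boxes with Clock, averaged 8.28 ± 2.72 CPM in mutants and 18.9 ± 2.66 CPM in controls (log2 -1.20, SE 0.27), with an adjusted p of 0.326 in edgeR and 0.00926 in DESeq2. The sources used here do not give the time of tissue collection, and its part in the values of Klf15 and the glucocorticoid targets was not tested.

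Adipocyte and macrophage markers are given because these cells also express Klf15, Fkbp5 and Tsc22d3. The 10 adipocyte markers summed to 2863 to 3507 CPM in mutants and 1849 to 5860 CPM in controls, with 9 of 10 means higher in mutants and a median log2 fold change of 0.73. Most of these sums was Car3, which muscle fibres also express, with 2406 to 3239 CPM in mutants and 1618 to 5686 CPM in controls. Without Car3, left out after its values were seen, the other 9 summed to 268, 457 and 422 CPM in mutants and 344, 173 and 231 CPM in controls, and all 9 means were higher in mutants. Fabp4, the fatty acid binding protein gene of adipocytes and capillaries, had 166, 194 and 242 CPM in mutants and 151, 126 and 160.2 CPM in controls, without overlap (log2 0.46, SE 0.18, unadjusted p = 0.0367, adjusted p = 0.677 in edgeR). None of the 10 was called by edgeR or DESeq2. The 10 macrophage markers summed to 130.4 to 221 CPM in mutants and 112 to 174 CPM in controls, with 8 of 10 means higher in mutants. No marker of either list was at 0 in all libraries, and their part in the members' values was not tested.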

How the data were processed

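For 6 poly(A)-selected directional libraries (2 x 61 bp reads) the deposited values are raw counts of read pairs, in 1 matrix and in per-library files that count without strand and on either strand, per the file headers and the labels' protocols. The matrix equalled the unstranded counts in all 57010 genes. The submitters' processing notes name STAR 2.7.11b, DESeq2 1.50.2 and GRCm39. The sources used here do not name the annotation release. The authors' deposited DESeq2 table holds per gene a mean normalized signal, a log2 fold change with its SE, a score (the Wald statistic) and p-values. Totals ran from 35042245 to 43733641 read pairs, and 3 counts correspond to 0.0680 to 0.0827 CPM, a limit that covers counting error only. Entries that name no gene (18.5% to 22.3% of pairs) were left out.

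Counts were tested with edgeR 4.0.16 in R 4.3.3 (TMM, filterByExpr with a minimum count of 10, robust quasi-likelihood F-test, no covariate, Benjamini-Hochberg over all genes tested, threshold 0.05). Log2 fold changes are mutant minus control, and the SE is the log2 fold change divided by the square root of F. DESeq2 1.42.0 on the same genes and limma-voom (limma 3.58.1) were alternatives, with other normalizations, filters, sex, the replicate number, males only, strand-matched counts and each library left out. DESeq2 with sex, on strand-matched counts and with each library left out were added after seeing the data. On simulated counts the edgeR procedure was tested first. No 2 libraries agreed within sampling noise (chi-square per degree of freedom of at least 53.2).

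Symbols from GENCODE M21 matched 52029 of 57010 gene IDs, and exon lengths are the union of exons there (GRCm38). Promoters are RefSeq's (GRCm38.p6, not the build of the counts). The members and lists were chosen with earlier results of these data known. The genes named are the 10 members, Dysf, the 3 genes of smallest p and any called gene of each list, and the 3 genes most like 5 members. A gene that this rule names is not reported here. For the lists of cell markers, summed levels stand in place of these genes. Genes named outside that rule after their values were seen are Gkn3, Nr3c1, Car3, Fabp4, Chrng, Myog, Gadd45a, Pdk4, Txnip, Sln, Per1, Igf1, Myh1, Myh2, Myh4, Myh7, Xist, Ddx3y, Ifi202b and H2-Ea-ps.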

Additional observations from a re-analysis of the deposited data

How the results depend on the processing

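The members called numbered 0 in the main edgeR test, 1 in DESeq2 and 1 in DESeq2 on strand-matched counts, Fkbp5 in both, and 0 to 2 when 1 library was left out. The genes called in all numbered 31 in the main test, 184 in DESeq2, 190 in DESeq2 on strand-matched counts, 87 in DESeq2 with sex, 79 without a low-count filter, 0 with sex as a covariate (882 at an unadjusted p below 0.05) and 0 in males only (594). When 1 library was left out, edgeR called 6 to 49 genes. DESeq2 called 100, 129 and 290 without mutant replicates 1, 2 and 3, and 345, 322 and 160 without control replicates 1, 2 and 3. The members' median log2 fold change, -0.24, ran from -0.54 without control replicate 3 to 0.083 (0.082 in DESeq2) without control replicate 2. Deviations of libraries with the same replicate number correlated at 0.23, -0.057 and 0.22, and those with different numbers at -0.27 to 0.16. These values do not settle whether the numbers pair the animals. With the replicate number as a block, 11 genes and 0 members were called, and the members' median was -0.074. Directions turned for Fbxo32 in limma-voom (0.082) and with the replicate block (0.077), and when 1 library was left out its value ran from -0.47 to 0.60, being 0.27 without mutant replicate 3. They also turned for Tsc22d3 in limma-voom (0.069) and with the replicate block (0.080), and without 1 library it ran from -0.38 to 0.55. Without 1 library Trim63 ran from -0.61 to 0.21. Foxo4 turned with sex as a covariate (-0.22, and -0.24 in DESeq2) and in males only (-0.22). The cause was not tested. Of 240 member values under 24 alternatives, 216 kept their direction and their side of the threshold. No alternative changed the depth, so what it limits was not tested.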

Other observations

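Igf1, the growth factor gene whose signal holds FoxO factors out of the nucleus, mirrored Fbxo32 across the libraries, a pair chosen after its values were seen. Igf1 had 18.3, 19.7 and 62.4 CPM in mutants and 36.7, 19.0 and 107 CPM in controls, so the male mutant and control replicate 3, lowest of their groups in Fbxo32, were highest in Igf1. Pearson's r of log2 CPM was -0.96 and Spearman's rho -0.94 over 6 libraries, and r ran from -0.98 to -0.94 with 1 library left out. Igf1 was the gene ninth from the bottom among 9154 ranked by r with Fbxo32. Trim63 did not share this pattern, its highest library being control replicate 2 and the rest lying between 191 and 241 CPM.

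The ratio of the highest to the lowest library was larger among controls than among mutants in 9 of 10 members, Foxo4 being the exception, against 61.7% of the 15534 genes tested with a count in every library. The mutants include both sexes and the controls do not. Tsc22d3 had the smallest ratio among mutants, 1.04, against 2.99 among controls.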
